A study of Mus musculus with 5 samples.

Results

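The mitochondrial ribosomal protein genes of mouse erythroid marrow cells were compared between wild-type (WT) mice and mice carrying a mutant mitochondrial DNA polymerase gene, Polg. Members were the genes whose symbol begins with Mrpl (large subunit) or Mrps (small subunit) followed by a digit and which had a probe set paired with that symbol alone. The brightest such probe set stood for each gene. There were 71 members, 43 of the large and 28 of the small subunit, among 22180 genes on the array. A further 7 symbols of the family (Mrpl30, Mrpl33, Mrpl41, Mrpl43, Mrpl44, Mrpl53 and Mrps6) lay only on probe sets shared with other genes and were not analysed here.

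The mitochondrial ribosome translates the few proteins that mitochondrial DNA encodes, all of them core subunits of the respiratory chain and ATP synthase. Its RNAs are made in the organelle, while its proteins are encoded in the nucleus, made in the cytosol and imported. The large subunit forms the peptide bond and holds the exit tunnel that opens towards the inner membrane, and the small subunit decodes the messenger. Some of the proteins descend from bacterial ribosomal proteins and others are found in mitochondria alone. Erythroblasts need this machinery while they make heme, and lose their mitochondria as they mature.

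Ter119+ cells of bone marrow were selected magnetically after depletion of CD45+ cells, and total RNA was hybridised to 1-colour Affymetrix arrays. There were 2 WT arrays, labelled Polgtm1Lrsn wt/wt, and 3 Polg mutant arrays, labelled Polgtm1Lrsn mt/mt, an allele whose polymerase lacks proofreading. Both genotypes were of C57BL/6 background and carried the same breeding label, a mother that was Atg7 flox/flox, Epo-cre wt/wt and PolG wt/mt crossed with a father that was Atg7 flox/flox, Epo-cre ki/wt and PolG wt/mt. All offspring would thus carry floxed Atg7, and the labels do not tell which of them inherited Epo-cre. The design text calls the mice phlebotomized, while the treatment field reads none. No source used here gives ages or bleeding schedules. Nor do the labels say whether each array had an animal of its own, so the p-values reflect only array-to-array spread within this set, which may be technical.

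Values are the authors' log2 expression values, so a difference of 1 is a 2-fold change. Array medians lay between 5.10 and 5.13. Erythroid markers averaged 11.6 to 12 on the 5 arrays over the 8 of 10 that were measured. Neutrophil markers, 12 of 12 measured, averaged 8.25 and 7.18 on WT replicates 1 and 2 and 8.71, 9.27 and 7.41 on Polg mutant replicates 1 to 3. Macrophage markers (10 of 10) averaged 5.39 to 5.63, lymphocyte markers (7 of 8) 4.74 to 5.26 and megakaryocyte markers (4 of 6) 6.66 to 7.88. In bulk cells a smaller share of a cell type and less RNA per cell cannot be told apart. The Polg probe set read 6.97 on every array, and does not report a change of sequence. Atg7 read 7.74 on 4 arrays and 7.71 on WT replicate 2.

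Most mitochondrial ribosomal protein genes lay slightly higher in Polg mutant cells, and a few large-subunit genes stood well above WT. The mean of the Polg mutant arrays was above that of the WT arrays for 53 of the 71 members (74.6%) and below it for 15 (21.1%). Over all genes these shares were 46.6% and 48.3%. In 3 members (Mrpl2, Mrpl45 and Mrpl46) all 5 arrays held a single value. The median difference, Polg mutant minus WT, was 0.12 over all members, 0.084 over the large subunit and 0.12 over the small subunit, against 0 over all 22180 genes. Differences ran from -0.18 (Mrpl22) to 1.22 (Mrpl52) in the large subunit and from -0.14 (Mrps31) to 0.40 (Mrps21) in the small. No member passed limma's test after Benjamini-Hochberg adjustment over all genes (smallest adjusted p = 0.236), and neither did any other gene (0% called). At an unadjusted p under 0.05, limma had 10 members higher and 1 lower, where the background was 4.18% of all genes higher and 5.33% lower. Of the 71 members, 58 exceeded a log2 of 6 on 2 or more arrays, 36 of the large and 22 of the small subunit.

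The large subunit held the larger differences. A difference of at least 0.25, or 1.19-fold, was reached upward by 15 of 43 large-subunit genes (34.9%) and 5 of 28 small-subunit genes (17.9%), where the background was 9.28% of all genes and 16.2% of the 8340 genes that exceeded a log2 of 6 on 2 or more arrays (the brighter genes). No member was lower by that much, where the background was 9.22% of all genes and 15.5% of the brighter genes. A difference of at least 0.5 was found in 3 large-subunit genes, Mrpl52, Mrpl54 and Mrpl23, and in 0 small-subunit genes. The share of all genes reaching 0.5 was not computed, so this count has no background beside it. All 3 Polg mutant arrays exceeded both WT arrays, called apart upward from here on, in 14 large-subunit genes (32.6%) and 6 small-subunit genes (21.4%), beside 8.36% of all genes and 16.7% of the brighter genes. All 3 Polg mutant arrays were below both WT arrays, or apart downward, in 0 large-subunit genes and 1 small-subunit gene, Mrps31, beside 9.73% and 20.3%. Scaling moved these shares. After renewed quantile normalization 20.5% of all genes were apart upward and 10.5% downward, with 17 large-subunit and 7 small-subunit genes upward. After array median centring the shares were 8.54% and 15.7%, with 14 and 5 genes upward and 1 and 3 downward. At an unadjusted p under 0.05, limma had 8 large-subunit genes higher and 0 lower, and 2 small-subunit genes higher and 1 lower. Among the brighter genes, 9.47% were higher and 12.5% lower by this count. The small subunit's share of higher genes by this count, 7.14%, thus lay between both backgrounds, while the large subunit's, 18.6%, lay above them.

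**Figure D1:**
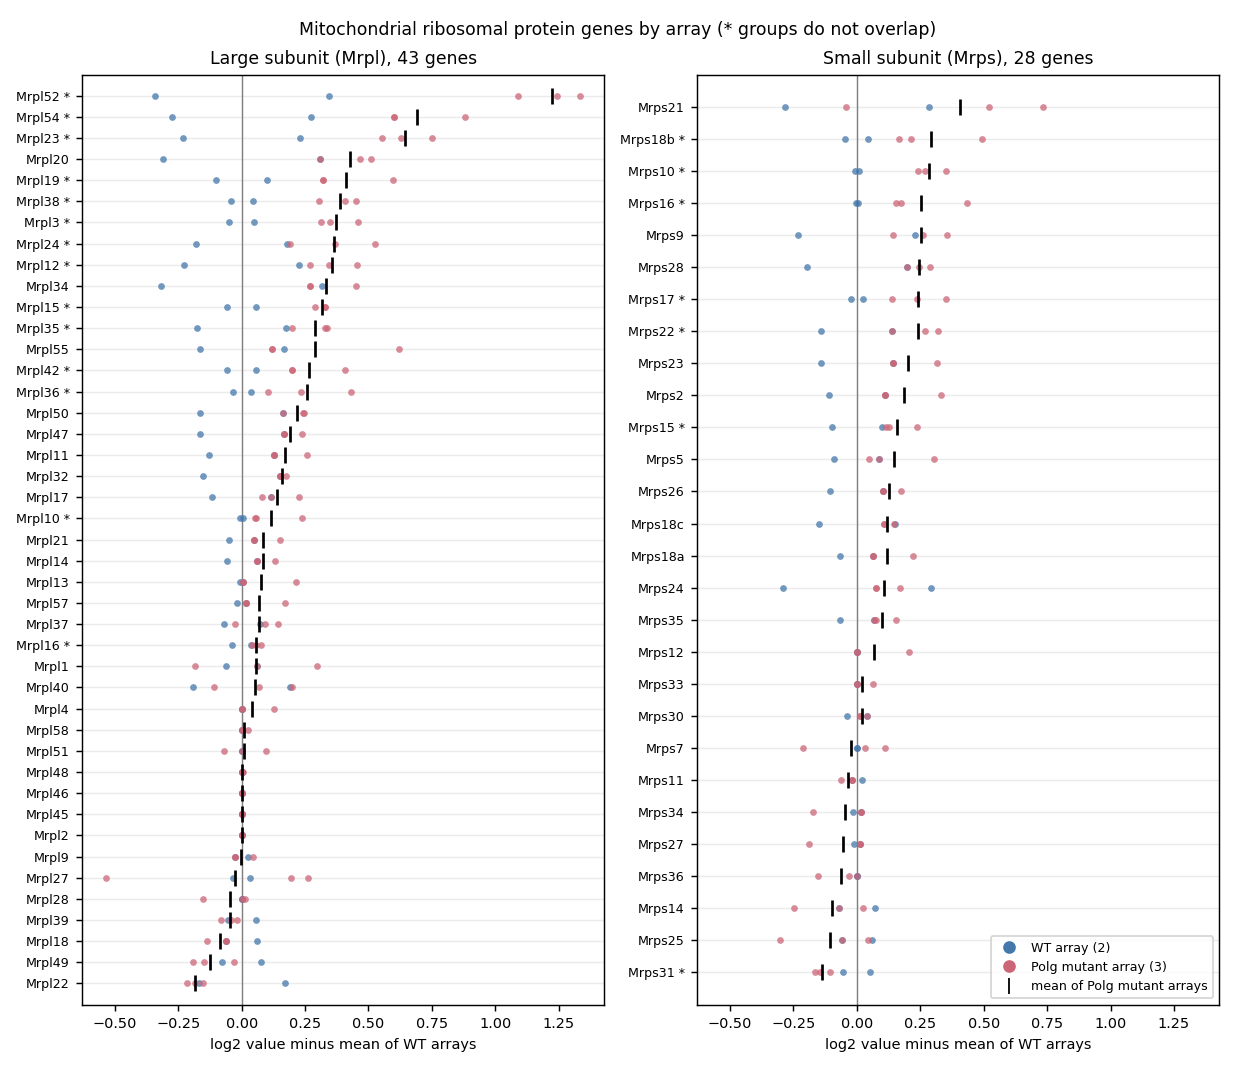
Each row is 1 gene of the large (left, 43 genes) or small (right, 28 genes) subunit, and each point is 1 array, placed on the x axis by its log2 value minus the mean of the 2 WT arrays of that gene. Black ticks are the means of the 3 Polg mutant arrays and asterisks mark the 21 genes whose groups do not overlap. The ticks lie to the right of 0 for 33 large-subunit and 20 small-subunit genes, and 1 marked gene, Mrps31, lies to the left.

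Whether the subunits differed from each other was not tested, because members of 1 ribosome are not replicates of a genotype. The difference of their medians, large minus small, was -0.034, and it turned to positive values between 0.011 and 0.026 when WT replicate 1, WT replicate 2, Polg mutant replicate 2 or Polg mutant replicate 3 was left out. The small-subunit median was 0.062 without WT replicate 1 and 0.059 without WT replicate 2. By their means over members, the large subunit stood at 0.22, 0.14 and 0.18 on Polg mutant replicates 1 to 3, relative to the WT mean, and the WT arrays at -0.038 and 0.038. The small subunit stood at 0.13, 0.10 and 0.088 on the Polg mutant arrays and at -0.0078 and 0.0078 on the WT arrays. For each subunit the Polg mutant arrays therefore lay above the WT arrays. The large subunit exceeded the small by 0.091, 0.034 and 0.088 on the Polg mutant arrays, against -0.030 and 0.030 on the WT arrays. Polg mutant replicate 2 was thus hardly above WT replicate 2. By medians over members instead, large minus small was 0.058, -0.012 and -0.0066 on the Polg mutant arrays and 0 on both WT arrays. The small subunit thus stood slightly higher on Polg mutant replicates 2 and 3 by that measure.

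**Figure D2:**
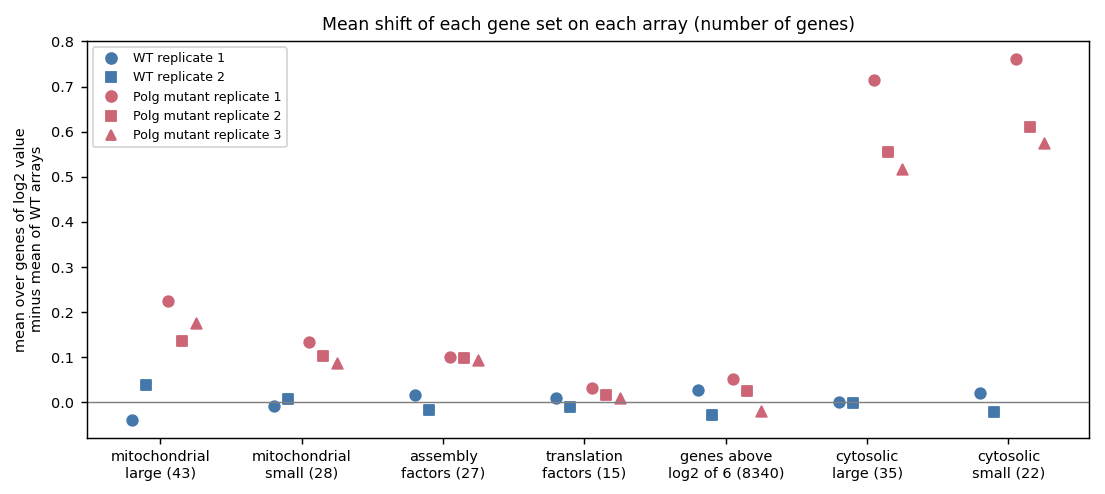
The y axis gives, for each array, the mean over a gene set of the log2 value minus the mean of the 2 WT arrays, with the number of genes in brackets. The 3 Polg mutant arrays lie at 0.14 to 0.22 for the large and 0.088 to 0.13 for the small mitochondrial subunit, and at 0.52 to 0.76 for the cytosolic ribosomal proteins.

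Promoter sequences are shown for 4 members that carry the main patterns: Mrpl52 with the largest difference, Mrpl3 and Mrps10 with the smallest p in their subunit among members with a promoter entry, and Mrps31, the member apart downward. They come from RefSeq, build GRCm38.p6, and run 5′ to 3′ from 250 bases before to 50 bases after the annotated start. Capitals mark the ETS-family core CCGGAAG, to which GABP binds, and the YY1 core AAGATGG, on either strand.
Mrpl52, chr14:54426659-54426958, plus strand: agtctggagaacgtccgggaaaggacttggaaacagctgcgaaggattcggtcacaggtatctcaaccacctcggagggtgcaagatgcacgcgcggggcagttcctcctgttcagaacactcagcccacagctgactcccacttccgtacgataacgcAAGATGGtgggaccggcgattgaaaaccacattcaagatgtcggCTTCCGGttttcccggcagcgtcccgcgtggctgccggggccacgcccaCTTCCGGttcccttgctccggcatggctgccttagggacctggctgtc
Mrpl3, chr9:105053018-105053317, plus strand: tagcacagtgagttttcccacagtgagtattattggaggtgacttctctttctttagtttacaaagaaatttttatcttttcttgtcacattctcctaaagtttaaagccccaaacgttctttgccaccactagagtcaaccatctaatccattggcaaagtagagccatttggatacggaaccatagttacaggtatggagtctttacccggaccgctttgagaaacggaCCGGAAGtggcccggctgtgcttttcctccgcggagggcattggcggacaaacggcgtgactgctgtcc
Mrps10, chr17:47368947-47369246, plus strand: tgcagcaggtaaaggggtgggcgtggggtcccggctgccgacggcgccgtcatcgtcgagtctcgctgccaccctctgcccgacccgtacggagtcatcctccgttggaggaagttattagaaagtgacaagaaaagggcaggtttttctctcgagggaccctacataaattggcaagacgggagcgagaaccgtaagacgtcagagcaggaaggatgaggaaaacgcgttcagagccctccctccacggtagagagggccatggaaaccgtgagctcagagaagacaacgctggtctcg
Mrps31, chr8:22411090-22411389, plus strand: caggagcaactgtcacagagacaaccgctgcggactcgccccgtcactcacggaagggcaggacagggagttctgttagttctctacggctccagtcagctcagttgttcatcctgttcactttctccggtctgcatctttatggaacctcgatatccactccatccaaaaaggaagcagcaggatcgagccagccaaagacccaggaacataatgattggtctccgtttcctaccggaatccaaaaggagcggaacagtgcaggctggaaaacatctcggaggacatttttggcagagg

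Mrpl52 held 2 matches to the ETS core and 1 to the YY1 core, Mrpl3 held 1 ETS core, and Mrps10 and Mrps31 held neither in this window. A promoter entry existed for 62 of the 71 members, in 68 windows of 300 bases. The ETS core was present in 33.8% of member windows, against 8.86% of all 32851 windows and 11.6% of the 21263 windows of protein-coding genes. The YY1 core was present in 19.1% of member windows, against 6.34% and 6.24%. The NRF1 core TGCGCA was present in 29.4%, against 7.76% and 9.74%. The E-box CACGTG, bound by Myc among others, was present in 10.3%, against 7.15% and 7.84%. The CARE letters TGATGNAA, bound by ATF4, were present in 0 of 68 member windows, against 3.97% and 3.6%. Median GC content was 58.5% in member windows and 56.3% in those of protein-coding genes. By gene, the ETS core was present for 12 of 37 large-subunit and 11 of 25 small-subunit members, and for 5 of 16 members apart upward against 18 of 46 others. The YY1 core was present for 4 of 16 and 9 of 46. Motifs were searched on both strands and counted separately even where matches overlapped. A match describes letters and not binding, and its absence says only that the letters are not in this window.

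Among the genes of smallest p, Mrpl15, a homologue of a bacterial large-subunit protein, read 7.02 and 6.90 on the WT arrays and 7.29, 7.29 and 7.25 on the Polg mutant arrays. The groups did not overlap, and the Polg mutant arrays lay within 0.039 of each other. The difference was 0.32 ± 0.04 (SE; limma adjusted p = 0.236). Mrpl38, a protein of the central protuberance that bacteria lack, read 7.96 and 7.88 for WT and 8.37, 8.33 and 8.22 for the Polg mutant. It differed by 0.39 ± 0.06 (SE; limma adjusted p = 0.238), and again the groups were apart. Mrpl3, whose bacterial counterpart reaches towards the peptidyl transferase centre, read 7.03 and 7.13 for WT and 7.54, 7.39 and 7.43 for the Polg mutant. Its difference was 0.37 ± 0.06 (SE; limma adjusted p = 0.254), with the lowest Polg mutant array 0.26 above the higher WT array.

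Mrpl52, a protein specific to mitochondria, had the largest difference of all members. It read 7.64 and 8.33 on the WT arrays and 9.23, 9.07 and 9.32 on the Polg mutant arrays. The WT arrays were 0.69 apart, and the lowest Polg mutant array was still 0.74 above the higher of them. The level went from 7.98 ± 0.49 (SD, n = 2) to 9.21 ± 0.13 (SD, n = 3), which is 2.33-fold, a difference of 1.22 ± 0.24 (SE; limma adjusted p = 0.283). Mrpl54, also specific to mitochondria, read 6.39 and 6.94 for WT and 7.54, 7.26 and 7.26 for the Polg mutant, a difference of 0.69 ± 0.21 (SE; limma adjusted p = 0.460). Mrpl23, a protein at the rim of the exit tunnel, read 7.23 and 7.69 for WT and 8.21, 8.08 and 8.01 for the Polg mutant, a difference of 0.64 ± 0.17 (SE; limma adjusted p = 0.379). In each of these 3 genes WT replicate 1 was the lowest array, WT replicate 2 came next and all Polg mutant arrays were higher.

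**Figure D3:**
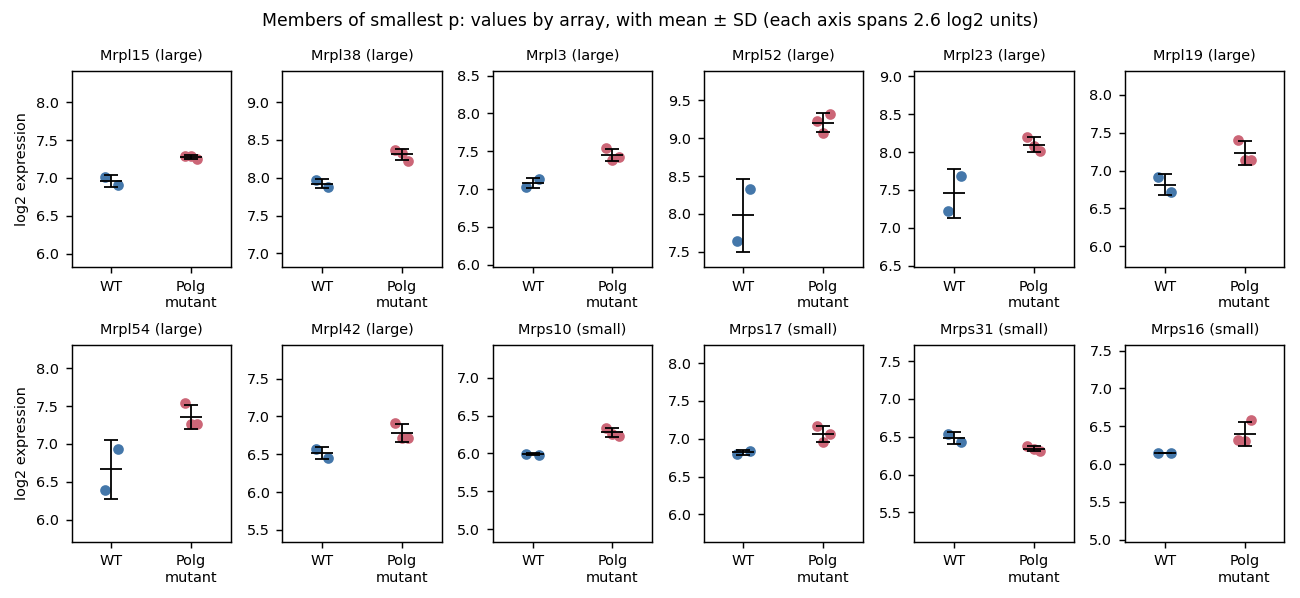
Log2 expression by array for the 8 large-subunit and 4 small-subunit genes of smallest p, WT left (2 points) and Polg mutant right (3 points), with black bars for the mean ± SD. Mrpl52 has both the widest gap between groups and the widest spread between WT arrays, and Mrps31 is the gene of the 12 that lies lower with the Polg mutation.

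Of the other large-subunit genes among the first 10 by p, Mrpl19, a bacterial homologue, read 6.91 and 6.72 for WT and 7.41, 7.14 and 7.14 for the Polg mutant, and Mrpl42, specific to mitochondria, read 6.57 and 6.45 for WT and 6.92, 6.71 and 6.71 for the Polg mutant. Polg mutant replicate 1 was the highest array in both, and the differences were 0.41 ± 0.13 and 0.27 ± 0.09 (SE; limma adjusted p = 0.455 and 0.507). Mrpl36 and Mrpl35, both with bacterial homologues, differed by 0.26 and 0.29 with limma adjusted p = 0.638 each. For Mrpl35 the lowest Polg mutant array was 0.023 above WT replicate 2, less than the 0.35 between the WT arrays. Mrpl36 did not exceed a log2 of 6 on 2 arrays, and its second, dimmer probe set differed by -0.0031.

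At the exit tunnel the members did not share a direction. Mrpl23 and Mrpl24 border the tunnel's mouth, and Mrpl24 differed by 0.36, while Mrpl22, which lines the tunnel, differed by -0.18 and Mrpl45, which holds the ribosome at the inner membrane, read 5.81 on every array. Mrpl22 read 5.12 and 5.46 for WT and 5.11, 5.08 and 5.14 for the Polg mutant, so that WT replicate 2 alone set its difference apart. At the stalk that recruits translation factors, Mrpl12 differed by 0.36, Mrpl11 by 0.17 and Mrpl10 by 0.12, with groups apart for Mrpl12 and Mrpl10. The space between groups was only 0.042 for Mrpl12, 0.049 for Mrpl10 and 0.013 for Mrpl24. Between the WT arrays it was 0.45, 0.010 and 0.36 in the same order. None of these stalk and tunnel genes other than Mrpl23 had an unadjusted p under 0.05. Mrpl18 and Mrpl49 differed by -0.087 and -0.12, with overlapping groups in both. Mrpl18 held the same value, 7.35, on WT replicate 2 and 2 Polg mutant arrays.

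A difference of at least 0.25 with overlapping groups was found in 3 large-subunit genes, Mrpl20 (0.43), Mrpl34 (0.33) and Mrpl55 (0.29). In Mrpl34 WT replicate 2 read 9.11, above 2 of the Polg mutant arrays, while WT replicate 1 read 8.48. Of the small subunit, Mrps9 (0.25) and Mrps21 did so.

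In the small subunit, Mrps10, a bacterial homologue, read 6.00 and 5.98 on the WT arrays and 6.34, 6.26 and 6.23 on the Polg mutant arrays. The groups were 0.23 apart, and the difference was 0.29 ± 0.04 (SE; limma adjusted p = 0.237). Mrps17, also a bacterial homologue, read 6.79 and 6.84 for WT and 7.17, 6.96 and 7.06 for the Polg mutant, a difference of 0.24 ± 0.07 (SE; limma adjusted p = 0.455). Mrps31, specific to mitochondria, ran the other way at 6.54 and 6.43 for WT and 6.38, 6.34 and 6.32 for the Polg mutant. Its difference was -0.14 ± 0.04 (SE; limma adjusted p = 0.473), or 1.10-fold lower. Mrps16, in which human mutations impair mitochondrial translation, read 6.15 and 6.14 for WT and 6.32, 6.30 and 6.58 for the Polg mutant, a difference of 0.25 with limma adjusted p = 0.638.

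Mrps22, another gene of human mitochondrial translation defects, differed by 0.24, and its groups were separated by only 0.00051. Mrps15 differed by 0.16, with groups 0.017 apart. Mrps28, Mrps23 and Mrps35 differed by 0.24, 0.20 and 0.10 with overlapping groups. Mrps21 had the largest difference of the small subunit, 0.40 ± 0.33 (SE; limma adjusted p = 0.661). It read 6.00 and 6.57 for WT and 7.02, 6.81 and 6.25 for the Polg mutant, so Polg mutant replicate 3 lay between the WT arrays. Mrps25 and Mrps14 were the lowest after Mrps31, at -0.11 and -0.098, with overlapping groups.

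Several symbols do not place their protein where the name says. Mrps30 and Mrps18a encode proteins found in the large subunit of the mammalian mitochondrial ribosome, and Mrps36 encodes a protein of the oxoglutarate dehydrogenase complex. Mrps30 read 6.45 and 6.37 for WT and 6.45, 6.42 and 6.42 for the Polg mutant, and its difference was 0.021, or -0.020 without WT replicate 2. Mrps18a differed by 0.12 and Mrps36 by -0.061, both with overlapping groups. With these 3 placed by structure the large subunit held 45 genes with a median of 0.084 and the small subunit 25 genes with a median of 0.13, and 14 and 6 genes were apart from WT upward, as by symbol. The other Mrps18 paralogs stay in the small subunit. Mrps18b read 7.32 and 7.23 for WT and 7.76, 7.44 and 7.49 for the Polg mutant, and its difference was 0.29 ± 0.12 (SE; limma adjusted p = 0.638). A second Mrps18b probe set read 6.91 and 6.98 for WT and 7.69, 7.46 and 7.51 for the Polg mutant, a difference of 0.61, so both probe sets lay higher. Mrps18c turned with the WT array used, at 0.12 over all arrays, 0.27 without WT replicate 1 (limma adjusted p = 0.0495) and -0.032 without WT replicate 2.

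Of the 9 members with more than 1 probe set, 3 had probe sets of opposite sign. These were Mrpl36, Mrps16 and Mrps17, and their dimmer probe sets differed by -0.0031, -0.0044 and -0.030 from levels under a log2 of 6. Probe sets of ribosomal protein genes may also detect processed pseudogenes, which these values cannot separate.

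By origin, the order of the classes depended on the measure in the large subunit. The 28 large-subunit genes with a bacterial homologue had a median of 0.15, against 0.052 for the 15 found in mitochondria alone. By means over genes, the homologues stood at 0.23, 0.12 and 0.17 on Polg mutant replicates 1 to 3 and the mitochondria-specific genes at 0.21, 0.16 and 0.19, so the latter were higher on replicates 2 and 3. At an unadjusted p under 0.05, limma had 4 of 28 homologues (14.3%) and 4 of 15 specific genes (26.7%) higher, beside 4.18% of all genes. In the small subunit by symbol the medians were 0.16 over 15 genes and 0.061 over 12 genes. Mrps36 was in neither class, and the 12 include Mrps30 and Mrps18a, whose proteins lie in the large subunit. Of the Mrps18 paralogs, Mrps18a and Mrps18b were counted among the 12 and Mrps18c among the homologues. Groups were apart upward in 10 of 28, 4 of 15, 4 of 15 and 2 of 12 genes in that order, where the background was 8.36% of all genes and 16.7% of the brighter genes, and 2 of 12 equals the latter share. The difference between these classes was not tested, and the member with the largest difference, Mrpl52, is specific to mitochondria.

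**Figure D4:**
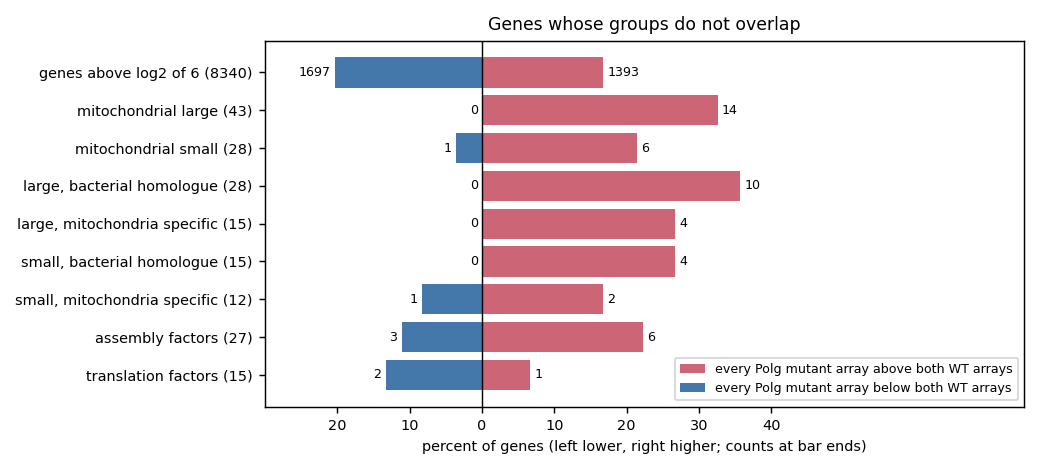
Bars give the percent of genes in each set for which all 3 Polg mutant arrays exceeded both WT arrays (right) or were below both (left), with gene counts at the bar ends and set sizes in brackets. The large subunit has 14 of 43 genes to the right and 0 to the left, whereas brighter genes in general have 16.7% to the right and 20.3% to the left.

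Arrays of a genotype were not alike. Polg mutant replicate 1 alone was the highest of the Polg mutant arrays for 34 members, replicate 3 for 22 and replicate 2 for 8, with 7 members shared. WT replicate 2 was higher than WT replicate 1 for 18 large-subunit genes and lower for 17, and the corresponding counts in the small subunit were 11 and 13. The difference between genotypes, in either direction, was larger than the gap between the WT arrays for 18 of 43 large-subunit and 11 of 28 small-subunit genes. The WT arrays held the same value in 8 and 4 genes, where any difference other than 0 counted, as small as 0.0023 in Mrpl48. The same share over all genes was not computed. Exact ties were common in the deposited values. Of the members, 45 shared a value between at least 2 arrays, and the 26 others included 17 of the 20 genes that lay apart upward. Over all genes with 5 distinct values, 19.7% were apart upward and 23.7% downward, against 8.36% and 9.73% of all genes. Neutrophil marker means were above both WT arrays on Polg mutant replicates 1 and 2 and between them on replicate 3, and their part in the result was not tested. Erythroid markers had a median difference of -0.27 over 8 genes, all of them brighter genes. All 8 were apart downward, beside 9.73% of all genes and 20.3% of the brighter genes. The members thus lay higher while these markers lay lower. The part of this shift in the result was not tested either.

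Other genes of mitochondrial translation were read from the same fit. Of the assembly factors, which build or modify the mitochondrial ribosome, 27 of 27 were measured, and their median difference was 0.064. All 3 Polg mutant arrays were above WT for 6 and below WT for 3, and at an unadjusted p under 0.05 limma had 5 higher and 1 lower, with 0 past the adjusted threshold. The shares apart were thus 22.2% upward and 11.1% downward, beside 8.36% and 9.73% of all genes and 16.7% and 20.3% of the brighter genes. By p the shares were 18.5% and 3.70%, beside 4.18% and 5.33% of all genes and 9.47% and 12.5% of the brighter genes. Of the 27, 16 were brighter genes. Noa1, a GTPase of small-subunit assembly, read 7.21 and 7.25 for WT and 7.91, 7.78 and 7.69 for the Polg mutant, a difference of 0.56 ± 0.08 (SE; limma adjusted p = 0.236). Eral1, which binds the RNA of the small subunit, differed by 0.31 ± 0.05 (SE; limma adjusted p = 0.242), with WT arrays at 7.58 and 7.69 and every Polg mutant array at 7.92 or more. Malsu1, which acts on the assembling large subunit, differed by 0.40 ± 0.07 (SE; limma adjusted p = 0.275), from 6.38 and 6.37 to 6.90, 6.71 and 6.71. All 3 thus lay above WT on every Polg mutant array. The other assembly factors apart upward were Pus1 (0.40), Rbfa (0.52) and Mtg1 (0.26). The 3 assembly factors apart downward were Tfb1m (-0.24), Mettl15 (-0.31) and Grsf1 (-0.29).

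Translation factors lay near WT on balance. The list's 15 measured genes of 17 had a median of 0.010, with 1 apart upward and 2 downward. These shares, 6.67% and 13.3%, lay beside 8.36% and 9.73% of all genes and 16.7% and 20.3% of the brighter genes. Tsfm, the exchange factor of the elongation factor Tu, differed by 0.24 ± 0.08 (SE; limma adjusted p = 0.483) at levels under a log2 of 6 on all but 1 array. The release factor gene Mtrf1l differed by -0.41 ± 0.19 (SE; limma adjusted p = 0.638), from 7.17 and 6.95 to 6.36, 6.83 and 6.76. Mtrf1 differed by -0.067 at levels of 4.38 to 4.49. Ribosomal proteins with other symbols differed by 0.039 for Dap3, 0.034 for Ptcd3 and 0.13 for Gadd45gip1, all with overlapping groups. Among 8 genes that replicate or transcribe mitochondrial DNA, Polg2, the accessory subunit of the polymerase, differed by -0.31 ± 0.08 (SE; limma adjusted p = 0.365), the mitochondrial RNA polymerase gene Polrmt by 0.16 and the transcription factor gene Tfb2m by 0.25.

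Cytosolic ribosomal proteins gave the nearest comparison. Their medians were 0.57 over 35 large-subunit and 0.57 over 22 small-subunit genes, and groups were apart upward in 29 and 17 of them, beside 8.36% of all genes. On Polg mutant replicates 1 to 3 the cytosolic large subunit stood at a mean of 0.71, 0.56 and 0.52 above WT and the small at 0.76, 0.61 and 0.57. The mitochondrial means of 0.088 to 0.22 were lower than these on every Polg mutant array. That difference was not tested, and levels of different probe sets cannot be set against each other.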

How the data were processed

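The deposited values are log2 expression by the authors, 41345 probe sets on 5 arrays, each array in its own column. Per the submitters' processing notes, RMA and Partek 6.5 were among the tools, roles unstated, with the annotation build not given in the sources used here. Values ran from 1.43 to 14.1, which fits a log2 scale, and nothing was rescaled. Without scanner files, signal over background is unknown, and the number of arrays limits precision.

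Probe sets were named by the platform annotation: 23521 had 1 symbol, 1814 several and 16010 none. The brightest single-symbol probe set per gene left 22180 genes. Limma 3.58.1 in R 4.3.3 fitted genotype over all genes and 5 arrays, with moderation without a trend, two-sided, with Benjamini-Hochberg adjustment over all genes at 0.05. The fit was tested on simulated data. That simulation had noise without ties and planted differences larger than those of nearly all members. It therefore does not cover the ties or the small differences of these data. An exact permutation test of 1 gene cannot go below p = 0.1. Of probe sets, 56.6% held the same value on at least 2 arrays, and limma's prior had an SD of 0.038 on 0.73 degrees of freedom.

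The members, lists, motifs and tests were chosen with earlier results of these data known. Named members were the 10 of smallest p and the 3 largest differences in each direction per subunit, those whose symbol misplaces them or whose probe sets disagree, and the 3 of smallest p in each other list. Stalk and tunnel genes, Mrpl2, Mrpl20, Mrpl34, Mrpl55, Mrpl46, Mrpl32 and Mrps9 were named after their values were seen, as was the difference limit of 0.25. Old symbols were looked up as RefSeq synonyms.

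Alternatives changed the probe set rule, the filter, the scaling, the variance moderation, the arrays, the replicate block and the subunit assignment.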

Additional observations from a re-analysis of the deposited data

How the results depend on the processing

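Both subunits' median differences kept their sign under every alternative run. The large-subunit median ran from 0.069 to 0.15 and the small-subunit median from 0.059 to 0.13 over fits that left out 1 array, and the small-subunit median was 0.14 over genes above a log2 of 6. Large minus small ran from -0.027 to 0.026 when 1 array was left out. Of the named members' single values, 368 kept their direction and side of the threshold, 2 passed it and 2 turned sign: Mrps30 at -0.020 and Mrps18c at -0.032, both without WT replicate 2. Many of these directions could not change, because alternatives of the moderation or the gene filter reused the same differences. The same holds for the mean over probe sets in genes with 1 probe set. The replicate block gave the same differences as the fit without Polg mutant replicate 3. Leave-one-out differences ran from -0.020 to 0.061 for Mrps30 and from -0.032 to 0.27 for Mrps18c.

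Members higher past the adjusted threshold numbered 0 to 2 over the fits without 1 array, and 0 under all other alternatives: Mrpl15 (0.37, limma adjusted p = 0.0260) and Mrps18c without WT replicate 1, and Mrpl32 (0.31, limma adjusted p = 0.0332) without WT replicate 2. These fits take the spread of the remaining WT array from the Polg mutant group, and over all genes 713 higher and 1068 lower passed without WT replicate 1 and 511 and 413 without WT replicate 2. Leaving out 1 array gave 5 to 11 large-subunit genes higher and 0 to 1 lower at an unadjusted p under 0.05 by limma, and 2 to 5 and 0 to 1 in the small subunit. Groups were apart upward in 15 to 21 large and 6 to 12 small members and downward in 0 to 2 and 1 to 4, and small-subunit genes higher by at least 0.25 numbered 3 to 8. The background moved too: by unadjusted p, 8.56% of all genes were higher without WT replicate 1 and 8.3% without WT replicate 2, against 3.23% to 3.74% without a Polg mutant array. Apart upward were 10.4% to 12.4% of all genes without a Polg mutant array, and apart downward 11.7% to 12.7%.

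Array median centring gave 14 large members apart upward and 1 downward, and 5 and 3 in the small subunit. It left 3 small members higher by at least 0.25 and 0 small members lower at an unadjusted p under 0.05 by limma. Of all genes, 8.54% were then apart upward and 15.7% downward, and 8.98% were higher by at least 0.25. Without moderation, limma's unadjusted counts were 5 large members higher, 1 small member higher and 0 lower, beside 2.9% of all genes higher and 3.87% lower. Counts were the same among genes with 5 distinct values, which held 17 large and 9 small members. There the background was 10.3% of such genes higher and 11.3% lower, so the small subunit's 1 of 9 was near that share. Renewed quantile normalization left 0 small members lower at an unadjusted p under 0.05 by limma, with 1 still apart downward.

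The labels share replicate numbers 1 and 2 between genotypes but do not say that these pair the arrays, so the numbers were not taken as pairs. Deviations of same-numbered arrays over all genes correlated at 0.19 for number 1 and -0.20 for number 2. The deviations of the 2 WT arrays mirror each other, so either gave the same correlation with opposite sign. These correlations therefore cannot decide on pairing. With the replicate block, large minus small was 0.012, small members lower at an unadjusted p under 0.05 by limma numbered 0 and large members higher 6. By that count 4.91% of all genes were higher and 4.77% lower.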
